A study of Mus musculus with 4 samples.

Results

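The genes examined here lie at 3 mouse loci that are known for disease-causing changes of topologically associating domain (TAD) borders. They were chosen as known disease loci and not by a measured value, although earlier results of these data were known at that point. They are 9 of the 21755 protein-coding genes that the annotation places on the chromosomes of the lists. Kcnj16, Kcnj2 and Sox9 lie on chromosome 11, Shh and Lmbr1 on chromosome 5, and Wnt6, Ihh, Epha4 and Pax3 on chromosome 1. In situ Hi-C gave the TADs of AML12 cells, an immortalized mouse hepatocyte line, grown either as a layer in dishes (2D) or embedded in Matrigel (3D). There were 2 samples per culture, 4 in all, and all cells were treated with 1 mM hydroxyurea, which blocks DNA replication, for 24 h in 2D and 36 h in 3D. The authors combined the samples of a culture before they called TADs, so there is 1 list per culture, no spread between replicates and no test between the cultures. Positions are all that the lists hold, and how many contacts support a given TAD is unknown. RNA was not analysed here, so neither expression of the 9 genes nor hepatocyte markers were checked.

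TADs are stretches of chromatin that contact themselves more than their surroundings. Their borders are often marked by the protein CTCF, which stops the loop-extruding cohesin ring, and they limit which genes a distant enhancer reaches. At these loci, deletions, inversions or duplications that cross a border are known to bring a gene under foreign enhancers in the limb bud. Duplications over the border between Kcnj2 and Sox9 lead to malformed digits, changes around Epha4 bring its limb enhancers to Pax3, Wnt6 or Ihh, and the limb enhancer of Shh, called ZRS, lies far away in intron 5 of Lmbr1. These cases come from limb tissue, while AML12 is a liver line.

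A TAD border, taken here as any distinct start or end of a TAD on the grid of 40 kb bins, lay between the starts of 3 of the 4 gene pairs in both cultures. These were Shh and Lmbr1, Epha4 and Pax3, and Wnt6 and Ihh. Positions of the disease borders were not compared, so a border listed between 2 genes is not shown to be the known one. The border of Shh and Lmbr1 lay inside Lmbr1, 87.6% of which was in the Shh TAD, and between the 2 gene bodies there were 0 borders in both lists. That border lay 18.4 kb from the Lmbr1 start, which is less than 1 bin. Between Kcnj2 and Sox9 no border was listed in 2D or in 3D. At distances like those of the 4 pairs, 66.2% to 94.8% of all gene pairs had a border in 2D. In 3D the shares were 62.8% to 94.5%, so 3 of 4 stood near the background. The 2D list had 4 borders between the paired genes, and 3 of these stood at the same position in 3D. The remaining one, between Epha4 and Pax3, lay 1 bin of 40 kb away. Of all 2D borders, 35.9% lay at least 40 kb from the nearest 3D border, so 3 of 4 stood near the background.

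**Figure D1:**
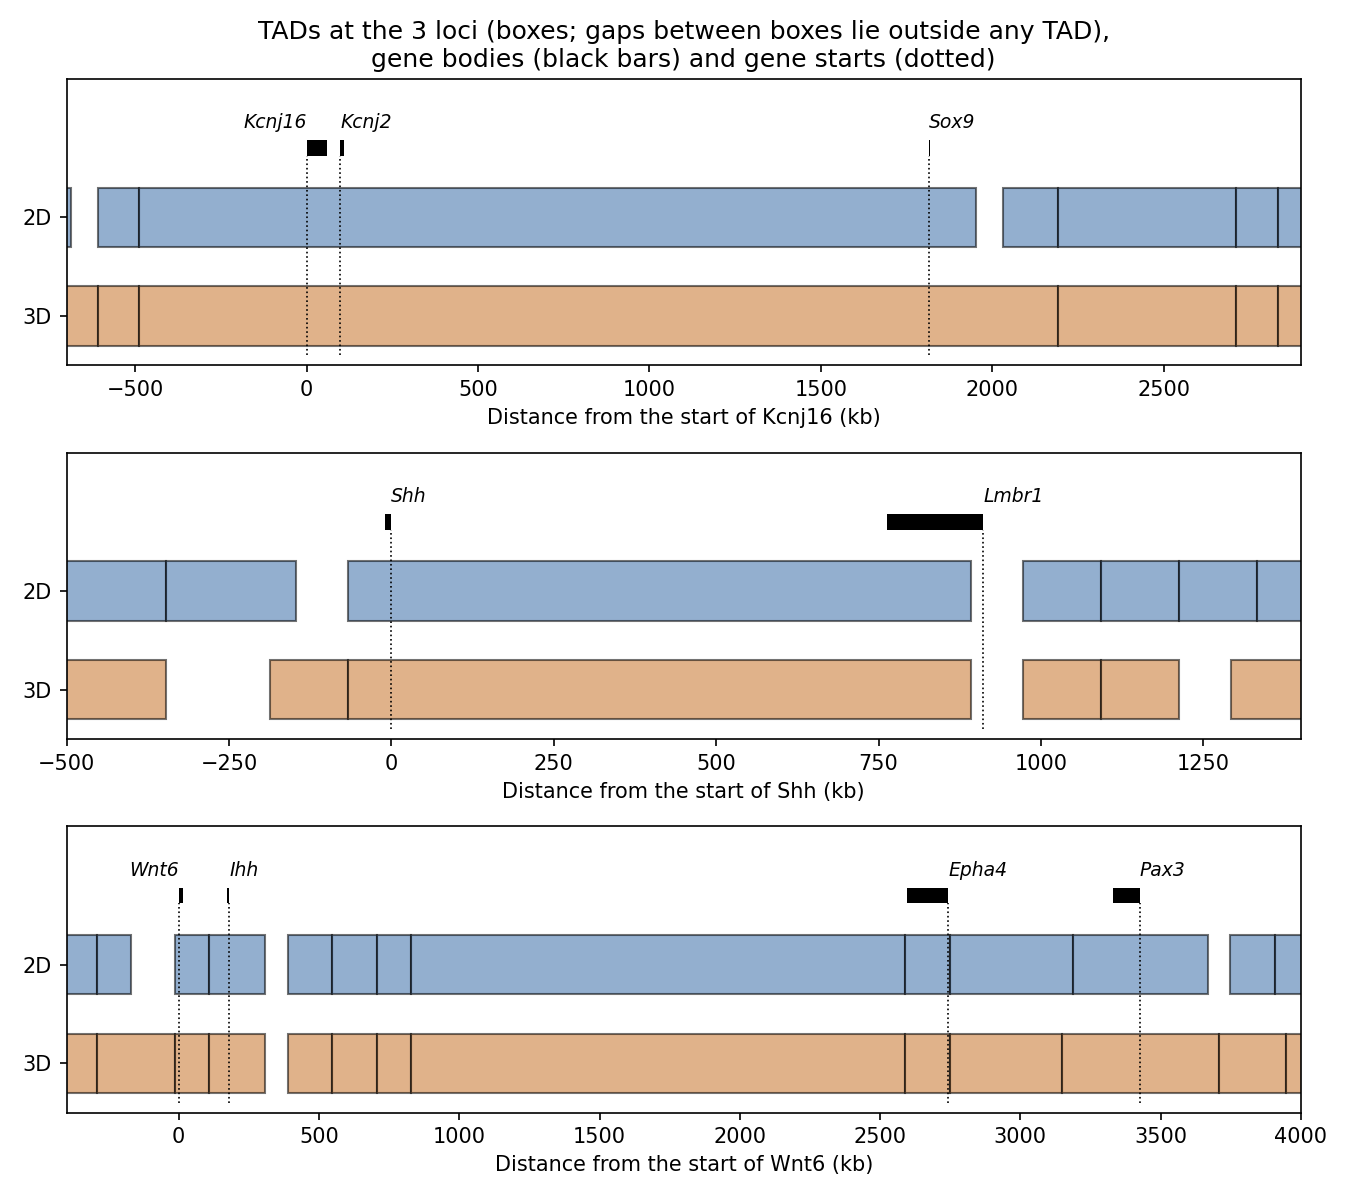
TADs at the 3 loci in 2D (blue) and 3D (orange), against the distance in kb from the start of Kcnj16, Shh or Wnt6; black bars are gene bodies and dotted lines gene starts. Kcnj16, Kcnj2 and Sox9 share 1 TAD in both cultures, whereas Wnt6, Ihh, Epha4 and Pax3 lie in TADs different from one another.

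The sequences near these borders are shown first, because CTCF sites are the sequence feature known for borders. The core searched on both strands was CCA, any 2 bases, AG, any 2 bases and GGC, within 40 kb on either side of each of the 5 distinct border positions. All 5 windows of 80 kb held it, but so did 92.0% of all 80 kb windows of the genome, so this core does not single out the borders. With 3 stricter cores contained in it, in which the second pair of free bases had to be GG, GT or AT, chosen after the first result was seen, 4 of the 5 windows held a match, against 48.9% of all windows. The 5 windows are not independent, since those of the 2D and 3D borders before Pax3 lie 1 bin apart and overlap by 40 kb. The 5 matches are printed from GRCm38, in the direction of the core, with the core in capitals.
Wnt6 and Ihh border, chr1:74895126-74895177, plus strand: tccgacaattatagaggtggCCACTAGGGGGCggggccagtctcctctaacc
Epha4 and Pax3 border beside Epha4, chr1:77556173-77556224, minus strand: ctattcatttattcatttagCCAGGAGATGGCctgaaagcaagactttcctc
Epha4 and Pax3 border in 2D, chr1:77978862-77978913, plus strand: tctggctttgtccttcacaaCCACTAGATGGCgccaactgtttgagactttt
Shh and Lmbr1 border, chr5:29334086-29334137, plus strand: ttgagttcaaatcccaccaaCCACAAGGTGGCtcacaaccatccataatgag
Shh and Lmbr1 border, chr5:29336018-29336069, minus strand: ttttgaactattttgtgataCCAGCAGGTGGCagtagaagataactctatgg
The match beside the Wnt6 and Ihh border lay 15.1 kb after it and carried CCACTAGGGGGC. Both matches at the Shh and Lmbr1 border lay inside the Lmbr1 gene, 25.9 and 24.0 kb before the border, and on opposite strands. The window of the 3D border at 77920000, between Epha4 and Pax3, held 4 matches of the loose core and 0 of the stricter ones. Repeats were not masked in the search, and the matches are letters and not measured CTCF sites.

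Kcnj16, Kcnj2 and Sox9 stood together in a single very long TAD. Kcnj16 and Kcnj2 encode inward-rectifier potassium channels, and Sox9 is a transcription factor of cartilage, testis and bile duct cells. In 2D the TAD was chr11:110480001-112920000, 2440 kb long. In 3D it started at the same position and ended at 113160000, which made it 2680 kb long. Only 163 of the 4467 TADs in 2D (3.65%) and 149 of the 4355 in 3D (3.42%) were as long or longer. The TAD held the starts of 3 protein-coding genes, which were Kcnj16, Kcnj2 and Sox9.

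The start of Kcnj2 (111066164, plus strand) lay 586 kb after the TAD start in both lists. The start of Sox9 (112782224, plus strand) lay at 94.4% of the length of the TAD in 2D and at 85.9% in 3D. Between them were 1716 kb without another protein-coding gene start. Of all pairs of protein-coding gene starts at 0.9 to 1.1 times this distance, 94.8% in 2D and 94.5% in 3D had at least 1 border between them. Most such pairs have other genes between them, however. Among the 149 pairs of consecutive gene starts from 0.8 times this distance up to the distance divided by 0.8, a comparison added after the first was seen, 57.0% had a border in 2D and 54.4% in 3D. No border in either list was found for 57 of these 149 pairs, so that a gene desert of this length without a border was common. The span held 0 unknown bases. Its 44 bins had a median of 93 MboI sites (68 to 117), the sites at which the chromatin was cut, against 99 in all bins without unknown bases. It held 12 matches of the stricter CTCF cores or 6.99 per Mb, against 9.60 per Mb in the genome. The part of these values in the missing border was not tested. Kcnj16 and Kcnj2, whose starts lie 98.1 kb apart, had no border between them either, and pairs at that distance had one in 45.0% of cases in 2D and 42.0% in 3D. Among the 2162 consecutive gene starts at a like distance the shares were 40.4% and 35.9%.

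The cultures differed at the far end of this TAD. In 2D the TAD ended at 112920000, 138 kb after the Sox9 start, and was followed by 80 kb outside any TAD and by a TAD of 160 kb without a protein-coding gene start. In 3D the Sox9 TAD covered all of this and ended 378 kb after the Sox9 start. The 2D border at 112920000 thus had its nearest 3D border 240 kb away. Of the 6056 borders in 2D, 222 (3.67%) were at least as far from a 3D border. The next gene start after Sox9, that of Sstr2, a somatostatin receptor, lay 837 kb away and in another TAD in both lists. The start of the TAD at 110480000 was the same in both lists and fell inside the body of Map2k6, a kinase gene that begins 569 kb before Kcnj16.

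**Figure D2:**
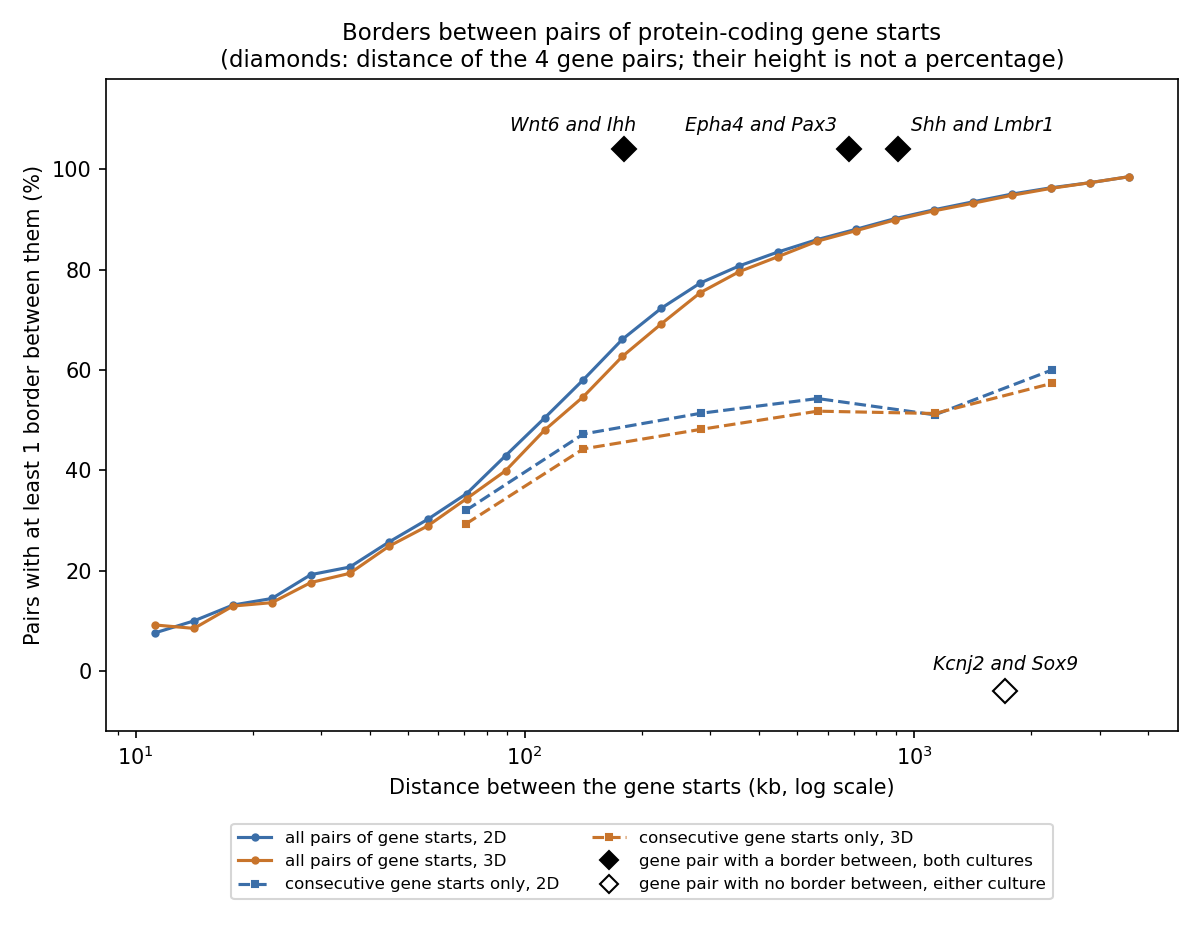
Percentage of pairs of protein-coding gene starts with at least 1 border between them, against the distance between the starts (kb, log scale), for all pairs (solid) and consecutive starts only (dashed) in 2D (blue) and 3D (orange). Diamonds mark the distance of the 4 gene pairs: black for a border in both cultures (Wnt6 and Ihh, Epha4 and Pax3, Shh and Lmbr1), white for none (Kcnj2 and Sox9, 1716 kb).

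Shh and nearly all of Lmbr1 lay in 1 TAD whose ends were identical in the 2 cultures. Shh is a secreted signal that patterns the limb and the neural tube, and Lmbr1 encodes a membrane protein and hosts the ZRS. The TAD was chr5:28400001-29360000, 960 kb long, and 14.6% of the TADs in 2D and 14.9% in 3D were as long or longer. It held the starts of Shh and of Rnf32, a RING finger gene. The Shh start (28467256, minus strand) lay 67.3 kb from the TAD start, at 7.01% of its length.

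The end of the TAD fell inside Lmbr1 (chr5:29229802-29378390, minus strand). Of the 149 kb of the gene, 130.2 kb or 87.6% lay in the Shh TAD, and the other 18.4 kb, with the Lmbr1 start, lay outside any TAD in both lists. In the principal transcript, which has 17 exons, the border fell in intron 3 (chr5:29346907-29361047). Positions are known only to 1 bin, which exceeds the 14.1 kb of this intron and the 18.4 kb to the Lmbr1 start. The placement in intron 3, the 87.6% and the separation of the 2 starts therefore hold for the listed position only. Intron 5, chr5:29292950-29323801, lay wholly inside the Shh TAD, 36.2 kb before its end, which is less than 1 bin, and 826 kb from the Shh start. The intron that hosts the limb enhancer and the gene it is known to act on were therefore in the same TAD in 2D and in 3D. The starts of Shh and Lmbr1 were separated by 1 border, and pairs at 0.9 to 1.1 times their 911 kb had at least 1 border in 90.3% of cases in 2D and 90.0% in 3D. This border depended on how it was counted. Between the gene bodies, or at positions where 2 TADs meet, there were 0 borders in both lists, and with genes placed by their ends Shh and Lmbr1 fell in the same TAD. Beyond the stretch outside TADs followed a TAD of 120 kb with Mnx1, a homeobox gene of motor neurons and pancreas, and another of 120 kb with Ube3c, a ubiquitin ligase gene, both identical in the 2 lists.

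At the chromosome 1 locus, Wnt6, Ihh, Epha4 and Pax3 each had a separate TAD in both cultures. Wnt6 is a secreted Wnt ligand, Ihh the hedgehog ligand of growing cartilage, Epha4 an ephrin receptor that guides axons and Pax3 a transcription factor of the neural crest and muscle precursors. The TADs measured 120 kb for Wnt6, 200 kb for Ihh and 160 kb for Epha4, with identical ends in 2D and 3D. That of Pax3 measured 480 kb in 2D and 560 kb in 3D, wider by 1 bin at each end. Outside the Pax3 TAD, the TADs of these genes were thus smaller than the median TAD of their list (240 kb for 2D, 280 kb for 3D).

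Wnt6 (start 74771892, plus strand) and Ihh (start 74951672, minus strand) were separated by a border at 74880000, where 2 TADs met. The Wnt6 TAD, chr1:74760001-74880000, also held the starts of Wnt10a, another Wnt ligand, and of Cdk5r2, an activator of the kinase Cdk5. The Ihh TAD, chr1:74880001-75080000, also held Fev, Cryba2 and Cfap65, which encode a transcription factor of serotonin neurons, a lens crystallin and a protein of cilia. The nearest gene starts were that of Cdk5r2, 25.1 kb before the border, and that of Fev, 5.42 kb after it. At 0.9 to 1.1 times the 179.8 kb between Wnt6 and Ihh, 66.2% of gene pairs in 2D and 62.8% in 3D had a border between them. The Wnt6 TAD had the smallest size in the lists, 120 kb, and its borders were identical in both.

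Ihh and Epha4 were separated by the same 6 borders in both lists, over 2563 kb. At that distance 96.9% of gene pairs had a border in 2D and 96.9% in 3D. The Ihh TAD ended at 75080000, inside the body of Nhej1, a DNA repair gene, and 80 kb outside any TAD followed. Then came 3 gene-dense TADs of 160, 160 and 120 kb, with 12, 6 and 4 gene starts, among them Des, the muscle filament desmin, and Inha, a subunit of inhibin. The last of these ended 53.7 kb after the start of Slc4a3, an anion exchanger gene. From there a TAD of 1760 kb, chr1:75600001-77360000, reached to Epha4 without any protein-coding gene start. TADs without a gene start made up 6.83% of all TADs in 2D and 5.33% in 3D, and 12 and 11 of them were at least this long. Of the 31 other gene starts between Wnt6 and Pax3, 27 lay in a TAD in each list, where 76.7% of all gene starts did so in 2D and 83.5% in 3D. These 27 stood in only 5 TADs, all shared between the cultures with both ends within 40 kb, so they are not independent; of all gene starts, 51.3% in 2D and 51.6% in 3D lay in a shared TAD. Within 40 kb of a border lay 18 of the 31 in each list, against 41.1% of all gene starts in 2D and 38.7% in 3D.

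The TAD of Epha4 closely matched the gene itself. It was chr1:77360001-77520000, while the gene body was chr1:77367185-77515088 on the minus strand. The TAD exceeded the gene by 7.18 kb at one end and by 4.91 kb at the other, and the gene filled 92.4% of it. Among the 2489 protein-coding genes of at least 100 kb, 97 (3.90%) in 2D and 90 (3.62%) in 3D had a TAD that contained them and exceeded them by no more than 40 kb at either end. Since positions are known only to 1 bin, the match cannot be read more finely than 40 kb.

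Epha4 and Pax3 were separated by 2 borders and by a TAD without a protein-coding gene start. The first border, at 77520000, was the same in both cultures and lay 4.91 kb from the Epha4 start. The second was at 77960000 in 2D and at 77920000 in 3D, and the TAD between them spanned 440 kb and 400 kb, respectively. It lay 237 kb before the Pax3 start (78197134, minus strand) in 2D and 277 kb before it in 3D. Pairs at 0.9 to 1.1 times the 682 kb between the starts had a border in 87.7% of cases in 2D and 87.4% in 3D, and among the 391 pairs of consecutive gene starts at a like distance, chosen as for Kcnj2 and Sox9, the shares were 51.7% and 50.4%. The Pax3 start stood near the middle of its TAD, at 49.4% of its length in 2D and 49.5% in 3D. The TAD also held the start of Sgpp2, a sphingosine phosphatase gene.

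**Figure D3:**
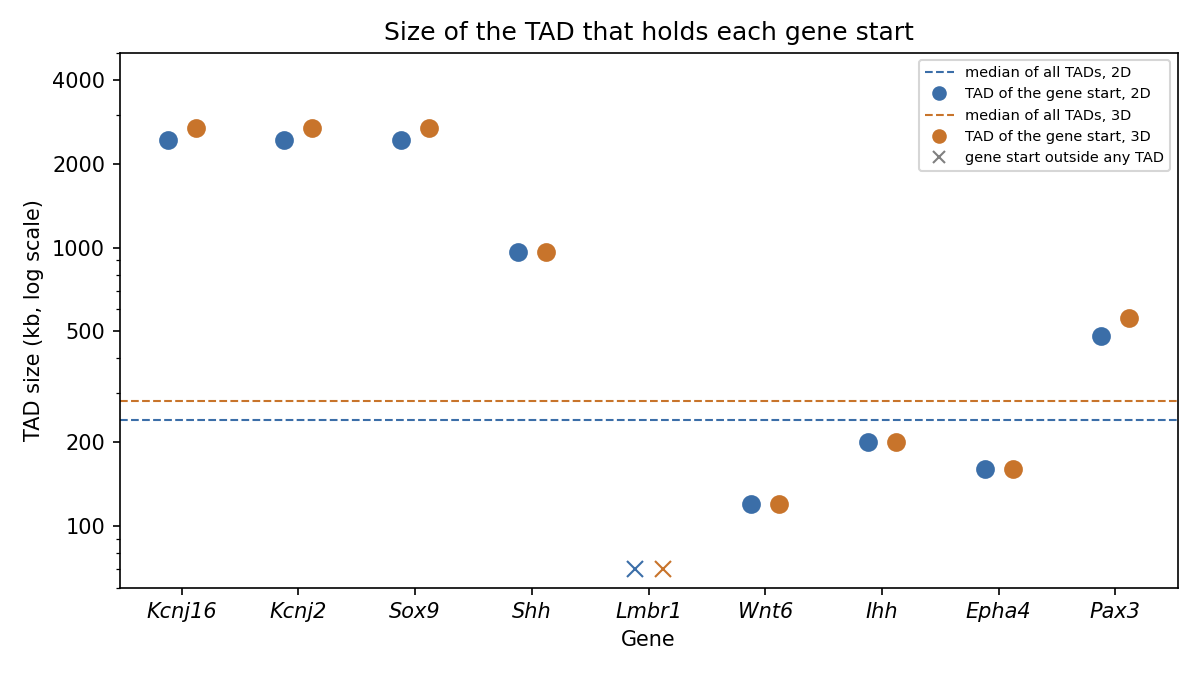
Size (kb, log scale) of the TAD that holds the start of each of the 9 genes in 2D (blue) and 3D (orange), with the medians of all TADs as dashed lines; crosses mark the Lmbr1 start, which lay outside any TAD. Kcnj16, Kcnj2 and Sox9 share TADs of 2440 and 2680 kb, and the Wnt6 TAD measures 120 kb in both cultures.

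Over the 9 genes, 8 starts lay inside a TAD in 2D and 8 in 3D, where all protein-coding gene starts did so in 76.7% and 83.5% of cases. Lmbr1 was the exception in both lists. The whole gene body lay inside 1 TAD for 8 of the 9 genes, against 65.7% of all genes in 2D and 72.7% in 3D. The TAD was shared between the cultures, with both ends within 40 kb, for 5 of the 9, which were Shh, Wnt6, Ihh, Epha4 and Pax3. Over all gene starts the share was 51.3% in 2D and 51.6% in 3D, so the 9 genes stood near the background. The genes are not independent in this count, since Kcnj16, Kcnj2 and Sox9 lie in the same TAD.

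Within 200 kb of the outermost genes, the 3 loci held 17 borders in 2D and 15 in 3D. Of the 2D borders 15 had a 3D border within 40 kb, and all 15 of the 3D borders had a 2D border. For all borders the percentages were 81.9% in 2D and 88.1% in 3D. At the same position lay 13 borders. Of all borders, 35.9% in 2D and 30.2% in 3D had no border of the other list at the same position. The 2 borders without a counterpart were that after Sox9 and one at 74600000, before Wnt6, whose nearest 3D border was 120 kb away.

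The distance from the gene start to the nearest border ranged from 4.91 kb for Epha4 to 586 kb for Kcnj2 in both lists. The median over the 9 genes was 71.7 kb in each list, against 53.6 kb in 2D and 58.3 kb in 3D for all gene starts. Starts within 40 kb of a border were those of 3 genes, Epha4 at 4.91 kb, Wnt6 at 11.9 kb and Lmbr1 at 18.4 kb, while 41.1% of all gene starts in 2D and 38.7% in 3D were as near. Shh at 67.3 kb and Ihh at 71.7 kb followed, and they did not differ by as much as 1 bin. Sox9 had the largest difference between the cultures, with 138 kb in 2D, a distance that 75.9% of gene starts did not exceed, and 378 kb in 3D, which 88.8% did not exceed. Pax3 moved by 1 bin and the other 7 genes not at all.

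**Figure D4:**
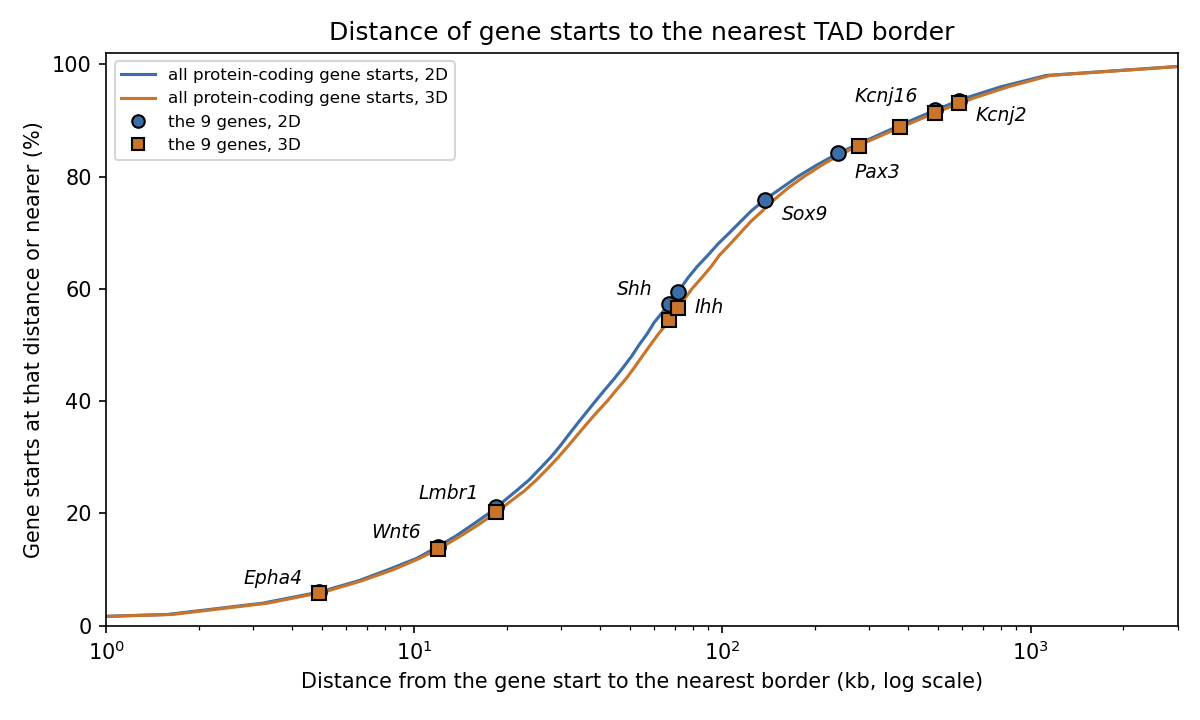
Percentage of protein-coding gene starts at a given distance (kb, log scale) or nearer to a border, as lines for 2D (blue) and 3D (orange), with the 9 genes placed on them as circles (2D) and squares (3D). Epha4, Wnt6 and Lmbr1 lie within 40 kb of a border, and the Sox9 symbols stand apart at 138 kb in 2D and 378 kb in 3D.

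The promoters of the 3 genes within 40 kb of a border are given because their starts lie in the bin next to a border. Sequences are the 250 bases before the start, from RefSeq (GRCm38.p6), in the direction of the gene, with CG dinucleotides in capitals.
Epha4, chr1:77515089-77515338, minus strand: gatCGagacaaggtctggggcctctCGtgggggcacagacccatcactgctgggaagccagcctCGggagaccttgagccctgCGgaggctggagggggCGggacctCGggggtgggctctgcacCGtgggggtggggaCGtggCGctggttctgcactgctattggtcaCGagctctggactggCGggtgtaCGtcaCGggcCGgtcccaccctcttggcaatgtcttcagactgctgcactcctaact
Wnt6, chr1:74771642-74771891, plus strand: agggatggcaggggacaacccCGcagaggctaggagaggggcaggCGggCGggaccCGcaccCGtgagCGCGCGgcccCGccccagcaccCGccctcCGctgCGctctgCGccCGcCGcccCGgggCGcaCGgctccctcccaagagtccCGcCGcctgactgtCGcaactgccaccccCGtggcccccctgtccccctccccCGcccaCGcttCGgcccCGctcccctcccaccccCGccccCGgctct
Lmbr1, chr5:29378391-29378640, minus strand: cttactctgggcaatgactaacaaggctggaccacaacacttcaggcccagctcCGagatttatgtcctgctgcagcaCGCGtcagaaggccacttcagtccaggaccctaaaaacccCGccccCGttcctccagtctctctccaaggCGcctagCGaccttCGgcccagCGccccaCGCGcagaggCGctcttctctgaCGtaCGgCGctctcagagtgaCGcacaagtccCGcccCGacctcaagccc
These held 14 CG in Epha4, 28 in Wnt6 and 18 in Lmbr1, against a median of 6 in all 32851 promoters of the table, of which 92.1% held at least 1. As many CG or more were found in 29.4% of all promoters for Epha4, 7.61% for Wnt6 and 21.7% for Lmbr1. Among the other genes with a sequence, all farther than 40 kb from a border, the promoter of Ihh held 24 CG, that of Kcnj2 held 14 and the 4 promoters of Kcnj16 held 3, 7, 4 and 1, so no order by the distance to a border was seen. Promoter sequences were found for 6 of the 9 genes, and not for Sox9, Shh and Pax3.

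The families of these genes were described by the same measure. Of 16 genes of the hedgehog pathway, 14 had their start in a TAD shared between the cultures, among them Dhh, the third ligand, the receptor gene Ptch1 and the effectors Gli1, Gli2 and Gli3. The exceptions were Boc, a co-receptor, whose TAD spanned 320 kb in 2D against 240 kb in 3D, and Smo, the signal transducer, whose start lay outside any TAD in both lists. Of 19 Wnt ligand genes, 14 had a shared TAD. The others all had a larger TAD in 3D: Wnt11 with 120 kb in 2D and 440 kb in 3D, Wnt2 with 240 and 440 kb, Wnt2b with 120 and 320 kb, Wnt3 with 200 and 800 kb, and Wnt9b with 120 and 800 kb. Wnt3 and Wnt9b are neighbours, separated by a border in 2D and in the same TAD of 800 kb in 3D, so they count as a single change. A longer TAD in 3D was also the more frequent case among all gene starts in a TAD of both lists that was not shared, at 3211 of 4722 or 68.0%.

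Of 14 Eph receptor genes, 10 had a shared TAD, and the start of Epha10 lay outside any TAD in both lists. Epha8 and Ephb2, also neighbours, lay in TADs of 200 and 240 kb in 2D and together in 1 TAD of 440 kb in 3D, whereas the start of Epha2 lay in a TAD of 120 kb in 2D and outside any TAD in 3D. Of 9 Pax genes, 5 had a shared TAD. Pax9 did not, with 640 kb in 2D and 560 kb in 3D, while Pax4 was in a TAD in 2D only and Pax8 in 3D only. The start of Pax5 lay outside any TAD in both lists. In the SoxE group, Sox8 and Sox10 had identical TADs of 440 and 520 kb and only Sox9 did not. Of 15 Kir channel genes, 10 had a shared TAD, and those without one were Kcnj11, Kcnj13, Kcnj14, Kcnj16 and Kcnj2. Of all gene starts, 51.3% in 2D and 51.6% in 3D had a shared TAD, and the 5 of 9 Pax genes stood near that share. The families are small, they include the genes described above, and neighbours were counted separately, so nothing is read from their shares.

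**Figure D5:**
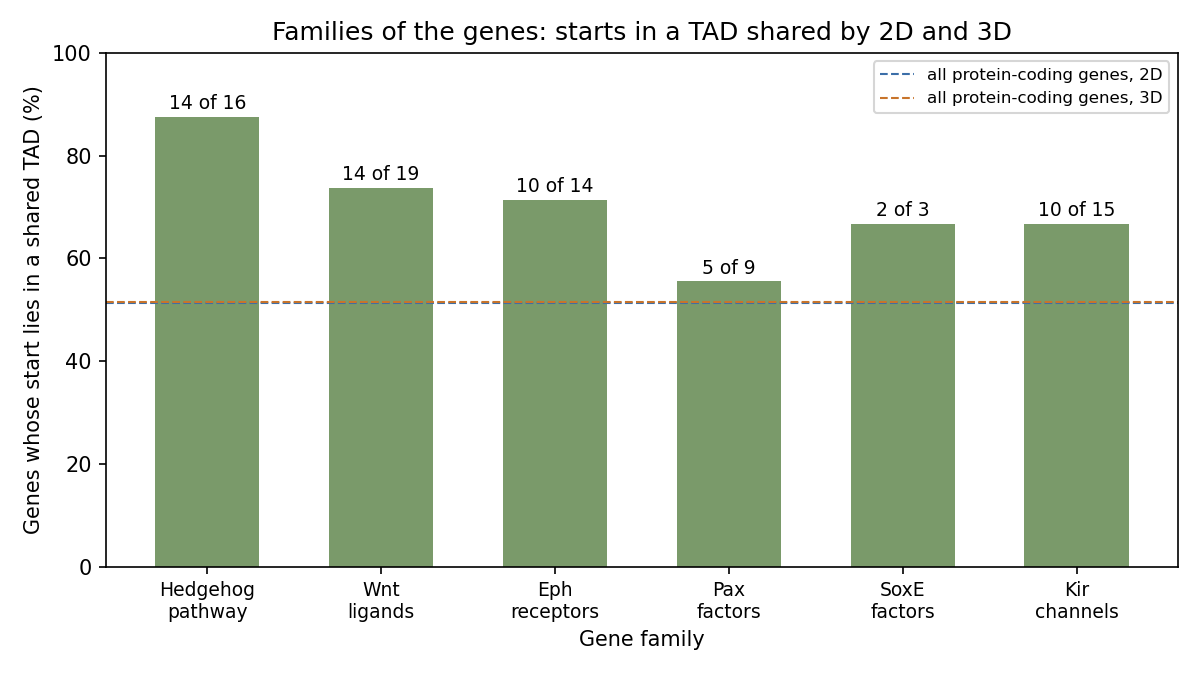
Percentage of the genes of 6 families whose start lies in a TAD shared by 2D and 3D (both ends within 40 kb), with the number of genes over each bar; dashed lines, which nearly coincide, give all protein-coding gene starts in 2D (51.3%) and 3D (51.6%). Shares run from 5 of 9 Pax genes to 14 of 16 hedgehog pathway genes, and nothing is read from their order.

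Of 3 other gene pairs, from loci that have been studied for TAD borders, none had a border between the starts in either list. Fip1l1, a gene of mRNA processing, and Pdgfra, a growth factor receptor gene, start 617 kb apart and shared a TAD of 2280 kb in 2D and of 2520 kb in 3D. Like that of Sox9, this TAD ended 240 kb farther in 3D. Pairs at that distance had a border in 86.8% of cases in 2D and 86.6% in 3D. The homeobox genes Six3 and Six2, 74.7 kb apart, lay in a TAD of 1000 kb in both lists, where pairs at a like distance had a border in 37.1% and 35.1% of cases, and consecutive gene starts in 32.5% and 30.3%. Evx2 and Hoxd13, 8.75 kb apart, lay in a TAD of 1680 kb in both lists. Their distance is below 1 bin, and 6.70% and 6.55% of pairs so close were separated, or 6.11% and 5.59% of consecutive gene starts.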

How the data were processed

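In situ Hi-C was done on 2 samples of AML12 cells per culture (2D, 3D). Each deposited list gives, for every TAD, its start and its end in base pairs of mm10, and no other value. According to the paper, the authors used Bowtie2 (2.2.9, also in the submitters' processing notes) to map reads to mm10 and combined the samples. They applied ICE to matrices of 40 kb bins, equalized the contacts per chromosome between the cultures and ran Armatus at a gamma of 0.8. A single gamma gives 1 scale of domains. The contact matrices were not analysed here.

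Gene starts were taken from GENCODE M21 (GRCm38, the build mm10 names), for protein-coding genes. Coordinates are 1-based. A border between bases p and p + 1 is given as p. A TAD was shared when both ends lay within 40 kb of those of a TAD of the other list. The 9 genes and the gene lists were chosen with earlier results of these data known. The genes named were these 9, those of 3 other pairs, the nearest genes at borders between paired genes, genes with a border within 40 kb of their start, and up to 6 genes per family whose TAD differed. Cfap65, Wnt10a, Nhej1, Smo, Epha10, Pax5, Des, Inha, Slc4a3, Sstr2, Map2k6, Mnx1, Ube3c, Rnf32, Sgpp2, those named as shared and those of the closing section were named after their values were seen. Percentages over all gene starts or pairs are a background and not a test; pairs overlap and are not independent. CTCF cores were searched in the RefSeq copy of GRCm38. Values were computed in Python (3.11.15) with numpy (2.4.6) and pandas (2.3.3), and 4 of 4 measures returned the known answers on simulated lists.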

Additional observations from a re-analysis of the deposited data

How the results depend on the processing

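Of 48 values under the alternatives planned at the start (another span, another definition of a border, TADs of at least 200 kb only, another distance between borders, genes placed by their body or end), 6 counts moved by more than 1.5 times, or to 0, and 42 did not. Within that tolerance small counts still changed. With genes placed by their ends, 2 of the 4 pairs had their genes in different TADs in place of 3, in both lists, since Lmbr1 then fell in the Shh TAD, and 9 of the 9 genes lay in a TAD in place of 8. At the same position lay 13 borders in place of the 15 within 40 kb. Between the gene bodies of Shh and Lmbr1 there were 0 borders in 2D and 0 in 3D in place of 1, because the border lies inside Lmbr1, and only positions where 2 TADs meet also gave 0 in both, because the border is followed by a stretch outside TADs. With the span widened by 40 kb at each end, Wnt6 and Ihh had 2 borders in 2D and 2 in 3D in place of 1, since the start of the Wnt6 TAD was then included. Between Kcnj2 and Sox9 the count was 0 under each of the 4 alternatives in both lists. This could not have been otherwise. All but the widened span can only remove borders, and the nearest border lay farther than 40 kb from both starts. With identical ends required, 4 of the 9 genes kept a shared TAD in place of 5. The share of all genes was not computed for identical ends or for placement by gene ends, so these counts stand without a background. The background of consecutive gene starts, that of TAD sizes in 3D and the stricter CTCF cores were added after seeing the data. Consecutive gene starts gave 57.0% and 54.4% for the distance of Kcnj2 and Sox9, and 51.7% and 50.4% for that of Epha4 and Pax3.

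No paired analysis was possible because each list comes from the combined samples of a culture, and for the same reason leaving out a replicate was not possible. The number of contacts behind each border, and TADs at other scales than that of the gamma used, remain unknown, so that a border that is not listed is not shown to be absent.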

Other observations

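The lists also differed just outside the outermost genes of the loci. Before Wnt6, the 2D list had a TAD of 120 kb followed by 160 kb outside any TAD, which held the starts of Rnf25, Stk36, Ttll4, Cyp27a1 and Prkag3; in 3D these genes lay in a TAD of 280 kb that reached up to the Wnt6 TAD. Cyp27a1 is the sterol hydroxylase of bile acid synthesis in hepatocytes, and Prkag3 encodes a subunit of the energy sensor AMPK. Before Shh the lists differed in both directions. The homeobox gene En2 and Cnpy1 lay in a TAD of 200 kb in 2D and in 160 kb outside any TAD in 3D, while the start of Rbm33 lay in a TAD in both lists. The 80 kb directly before the Shh TAD lay outside any TAD in 2D. In 3D they lay in a TAD of 120 kb. After Pax3, the starts of Farsb, Mogat1 and BC035947 lay in 80 kb outside any TAD in 2D and in a TAD of 240 kb in 3D, which they shared with Acsl3, a fatty acid activating enzyme. These stretches were picked because the lists differed there, there is 1 list per culture, and the differences were not tested.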
